A study of Rattus norvegicus with 12 samples.

Results

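Transcript levels in rat astrocytes that received SHP siRNA, interferon-γ and the agent labelled GW (siSHP_IFNg_GW) were compared with levels in astrocytes given a control siRNA and interferon-γ alone (siCon_IFNg). Arrays were assigned by their titles, which gave 3 arrays a group, 6 of the 12 arrays of the series. The other 6 arrays carried the control siRNA without treatment (siCon) or the control siRNA with interferon-γ and GW (siCon_IFNg_GW). All cultures were primary astrocytes from the cerebral cortex of Sprague-Dawley rats 1 day old. They had been held in serum-free medium for 2 days to remove microglia and meningeal cells, and treatment lasted 3 h. The siSHP_IFNg_GW and siCon_IFNg groups differ in both the siRNA and GW, so their difference alone cannot be assigned to either. The series text states that 4 of the 12 arrays are re-analysed ones, without naming them. Whether replicates came from separate cultures is not stated, and p-values then reflect array-to-array spread that may be only technical.

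Interferon-γ acts through its receptor and JAK kinases and switches on a first wave of factors such as Irf1, followed by chemokines, GTPases and antigen presentation genes. SHP, the small heterodimer partner encoded by Nr0b2, is a nuclear receptor without a DNA-binding domain that represses other transcription factors. The comparison asks which transcripts stood at the level of interferon-γ alone when SHP siRNA was given with interferon-γ and GW, and which differed from it.

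Values are log2 expression of 18166 genes, and triplets are given in the order of replicate numbers 1, 2 and 3. A level of 5.34, the 95th percentile of 1344 olfactory and vomeronasal receptor genes, was used as background. Nr0b2 itself read 5.12, 4.94 and 4.81 in siSHP_IFNg_GW and 4.72, 5.09 and 4.59 in siCon_IFNg, below background on all 12 arrays, so the effect of the siRNA on its target could not be checked. Arrays of number 1 stood apart in every group. In siCon number 1, interferon-responsive and inflammatory genes were already high: Cxcl10 read 10.52, against 8.86 and 8.59 in numbers 2 and 3. Results are therefore given over all 12 arrays, with the replicate number as a block, and, where this changes them, without number 1. Number 1 was set apart after its values were seen. The astrocyte gene Gfap, an intermediate filament, read 11.74, 12.06 and 12.04 in siSHP_IFNg_GW and 11.73, 12.04 and 11.997 in siCon_IFNg.

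Over all 12 arrays 55 genes differed between siSHP_IFNg_GW and siCon_IFNg at a limma adjusted p under 0.05, 0.303% of the genes tested. Of these, 44 were higher with SHP siRNA and GW (0.242%) and 11 were lower (0.0606%). The higher genes were led by the transcription factor gene Fos, the matricellular protein gene Ccn1, the linker histone gene H1f6 and the growth factor gene Hbegf, and the lower genes by the cytokine gene Il15. In all 55 the 2 groups did not overlap, so all 3 replicate numbers necessarily moved the same way. Over all genes 14.1% had groups that did not overlap. The 55 were called on these same arrays, so the lack of overlap describes them and is not further support. Differences of at least 1 on the log2 scale were found for 26 of the higher genes and for 1 of the lower. With the replicate number as a block, 559 genes differed (3.08%; 354 higher, 1.95%, and 205 lower, 1.13%), and all 55 were among them. Without number 1 there were 1129 (6.21%; 727 higher, 4.0%, and 402 lower, 2.21%), again with all 55. Leaving out number 2 or number 3 in all 4 groups left 0 genes past the limma threshold (638 and 605 at an unadjusted p under 0.05, against 1598 with all arrays). With no difference at all, a share of 0.05 of the genes tested would fall under that p, so the 638 and 605 show no signal by themselves. With all 3 numbers moving the same way, the sign of the 55 differences could not turn in either case. Their size was 79.5% to 118% of that over 12 arrays without number 2 and 78.0% to 119.9% without number 3. Leaving out number 3 of siCon_IFNg or of siSHP_IFNg_GW alone also left 0, number 2 of either left 5 and 6, and number 1 of either left 155 and 34. A fit of the 6 arrays alone called 6 genes, 4 of them among the 55. Centring each array on its median left 30, all among the 55.

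**Figure D1:**
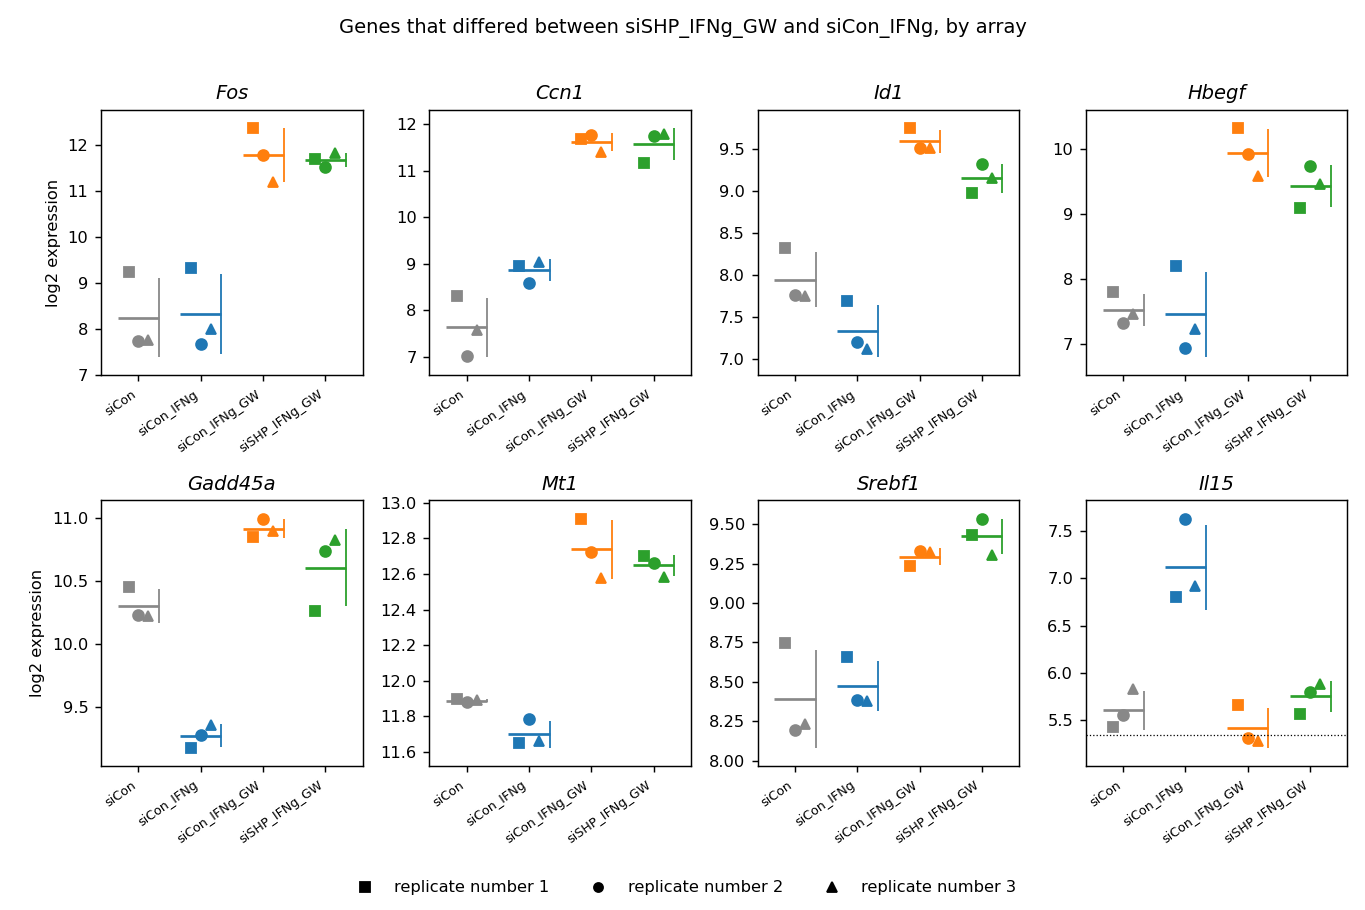
Log2 expression of 8 genes on each of the 12 arrays, by group; squares, circles and triangles are replicate numbers 1, 2 and 3, horizontal lines are group means, vertical lines 1 SD, and the dotted line in the Il15 panel is the background level of 5.34. In every panel the 3 siSHP_IFNg_GW arrays lie beyond the range of the 3 siCon_IFNg arrays, above it for 7 genes and below it for Il15.

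The AP-1 family, factors that pair Fos and Jun proteins and are switched on within minutes by many stimuli, included 4 genes that rose. Of 13 genes of the AP-1 and Atf3 list with a row, 4 passed over 12 arrays, all higher, 8 with the block and 11 without number 1, and the list's median difference was 1.32, against -0.02 over all genes. Fos read 11.70, 11.53 and 11.83 in siSHP_IFNg_GW and 9.33, 7.68 and 7.999 in siCon_IFNg. The lowest siSHP_IFNg_GW array lay above the highest siCon_IFNg array, itself number 1. The difference was 3.35 ± 0.48 (SE, n = 3 arrays a group), a 10.2-fold rise (adjusted p = 0.0319). Jun, its partner, read 11.26, 11.49 and 11.56 against 9.77, 10.02 and 10.05. Here the groups were tight and 1.49 ± 0.19 apart (adjusted p = 0.0154). The stress-induced factor Atf3 rose by 1.32 ± 0.18 (adjusted p = 0.0280) and Mafk, a small Maf protein that partners with AP-1 and NRF2-type factors, by 0.73 ± 0.09 (adjusted p = 0.0122). With control siRNA, the difference between interferon-γ with GW and interferon-γ alone was 3.46 for Fos, 1.45 for Jun, 1.49 for Atf3 and 0.74 for Mafk. That comparison uses the same siCon_IFNg arrays, so the values are set side by side and not as independent support.

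Egr and Nr4a factors and other immediate-early genes, which like Fos are transcribed at once after a stimulus, had the highest median difference of all 33 lists, 1.38. None of the 18 genes passed over 12 arrays, 12 rose with the block and 17 without number 1. Egr1, a zinc finger factor, read 12.04, 11.62 and 11.75 with SHP siRNA and GW and 11.004, 7.15 and 6.97 with interferon-γ alone. Number 1 of siCon_IFNg was near the treated arrays, while numbers 2 and 3 were far below them. The difference of 3.43 ± 1.02 had an adjusted p of 0.271 over 12 arrays and 0.0199 with the block. Nr4a1, an orphan nuclear receptor, read 11.49, 9.99 and 9.87 against 9.33, 5.45 and 5.62. These groups did not overlap, and the difference was 3.65 ± 1.01 (adjusted p = 0.236, 0.00279 with the block). Its relative Nr4a3 (2.57, adjusted p = 0.00911 with the block) and Egr2 (2.48, 0.0279) also rose in the fit with the block, as did Gdf15, a stress-induced TGF-β family cytokine (2.51, 0.00267).

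Krüppel-like factors, zinc finger proteins that include several immediate-early genes, had a median difference of 0.51 over 13 genes. Klf6 passed over 12 arrays, 6 genes rose with the block and 6 without number 1. Klf6 read 11.28, 11.58 and 11.66 in siSHP_IFNg_GW and 10.45, 10.09 and 10.16 in siCon_IFNg, a difference of 1.27 ± 0.15 (adjusted p = 0.0122). Its lowest treated array stood well above the highest with interferon-γ alone. Klf2 read 7.13, 8.65 and 8.90 against 6.21, 6.23 and 6.73 and Klf4 7.47, 7.48 and 7.61 against 6.90, 5.92 and 6.17. Both had groups that did not overlap, with number 1 the lowest of the treated arrays, and both rose only once the replicate number was taken into account (1.84, adjusted p = 0.102 and 0.0177 with the block; 1.19, 0.171 and 0.0314).

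Some genes that feed growth factor and MAP kinase signalling, or restrain it, rose. Hbegf, a membrane-shed ligand of the EGF receptor, read 9.10, 9.73 and 9.46 in siSHP_IFNg_GW and 8.19, 6.95 and 7.23 in siCon_IFNg and rose by 1.97 ± 0.31 (3.93-fold, adjusted p = 0.0388). The other 10 genes of the EGF receptor list did not pass over 12 arrays or with the block, and its median was 0.02. Errfi1, an inhibitor of the EGF receptor, rose by 1.28 ± 0.18 (adjusted p = 0.0280). It was the 1 gene of 14 in the MAP kinase feedback list to pass over 12 arrays, where 6 passed with the block, all higher. Those included the phosphatase gene Dusp6 (1.11, adjusted p = 0.0238 with the block), the Jun kinase phosphatase gene Dusp8 (1.35, 0.00476) and Spry4, a Sprouty inhibitor (1.19, 0.0227). Flrt3, a membrane protein tied to FGF receptor signalling, read 10.57, 11.29 and 11.30 against 8.50, 9.43 and 9.52, the levels of both groups being lowest in number 1. It rose by 1.91 ± 0.33 (adjusted p = 0.0473).

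Id proteins block basic helix-loop-helix factors, and their genes are direct targets of BMP signalling. Id1 read 8.98, 9.32 and 9.15 with SHP siRNA and GW and 7.69, 7.19 and 7.11 with interferon-γ alone, a rise of 1.82 ± 0.19 (adjusted p = 0.00688). Untreated arrays lay between the 2 groups at 8.32, 7.76 and 7.74. Id3 rose by 1.09 ± 0.18 (adjusted p = 0.0442). These 2 of 15 genes of the Id and BMP feedback list passed over 12 arrays and 7 with the block, all higher, with a median of 0.42. Hes1, a repressor downstream of Notch, read 9.48, 8.89 and 8.95 against 7.80, 6.21 and 6.19, with no overlap (difference 2.37 ± 0.45; adjusted p = 0.0616, 9.50e-04 with the block). The Notch list as a whole had a median of -0.00. With the block, of its 15 genes Hes1 rose and the ligand gene Dll1 fell (-0.47, adjusted p = 0.0299).

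Ccn1, a secreted matrix protein, and Amotl2, a junction protein that restrains YAP, are classic targets of the YAP and TEAD factors. Ccn1 read 11.17, 11.74 and 11.79 in siSHP_IFNg_GW and 8.95, 8.59 and 9.04 in siCon_IFNg. The groups were wide apart and the rise was 2.71 ± 0.29 (6.53-fold, adjusted p = 0.00688). Amotl2 read 8.37, 8.84 and 9.02 against 6.82, 7.05 and 7.19 and rose by 1.73 ± 0.24 (adjusted p = 0.0248). They were the 2 of 14 genes of the YAP and SRF list that passed over 12 arrays. With the block 4 rose, among them the kinase gene Lats2 (0.89, adjusted p = 0.0227) and Ajuba, a LIM protein that binds LATS kinases (0.84, 0.0295), and the list's median was 0.10. Their RefSeq promoters (build GRCr8, 250 bases before to 50 after the gene start) are shown because both hold the TEAD letters ACATTCC, which were searched on both strands and are in capitals. Ccn1 lies on the minus strand at chr2:237225640-237225939, and Amotl2 on the plus strand at chr8:112182376-112182675. The motif was found in 3.90% of the 27457 promoters of the table, in 5 of the 8 promoters matched for the list and in 2 of the 47 matched for the 55 genes that differed. A match describes the letters and is not a site of binding.
Ccn1: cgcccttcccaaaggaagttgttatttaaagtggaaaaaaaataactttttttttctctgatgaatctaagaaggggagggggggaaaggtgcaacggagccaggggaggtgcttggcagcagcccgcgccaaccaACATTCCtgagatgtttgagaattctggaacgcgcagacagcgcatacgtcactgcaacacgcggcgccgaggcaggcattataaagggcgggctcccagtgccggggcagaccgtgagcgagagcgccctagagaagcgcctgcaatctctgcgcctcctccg
Amotl2: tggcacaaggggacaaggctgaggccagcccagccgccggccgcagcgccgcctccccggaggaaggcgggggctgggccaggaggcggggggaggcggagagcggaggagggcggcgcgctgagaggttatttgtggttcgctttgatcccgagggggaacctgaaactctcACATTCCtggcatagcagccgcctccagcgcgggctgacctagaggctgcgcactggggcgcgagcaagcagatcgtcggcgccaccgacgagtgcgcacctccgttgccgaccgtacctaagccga

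Some clock-linked genes were higher as well. Nfil3, a repressor of D-box promoters, read 7.52, 8.21 and 8.44 with SHP siRNA and GW and 6.40, 6.43 and 6.62 with interferon-γ alone, a rise of 1.57 ± 0.25 (adjusted p = 0.0412). Noct, a rhythmic phosphatase of NADP(H), read 9.86, 10.28 and 10.44 against 9.12, 8.84 and 8.92 and rose by 1.23 ± 0.19 (adjusted p = 0.0388). Both had groups that did not overlap. Nfil3 and Noct were 2 of 15 genes in the clock output list, of which 9 rose with the block. The repressor gene Bhlhe40 (1.68, adjusted p = 0.00786 with the block) and the core repressor gene Cry1 (0.49, 0.0337) were among the 9. Without number 1 Noct was higher with SHP siRNA than with control siRNA under interferon-γ and GW, by 0.71 (adjusted p = 0.0131), the 1 gene of the 55 to pass there, and over 12 arrays 0 of the 55 did.

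Of 5 genes of the metallothionein and zinc list, 1 rose over 12 arrays and 2 with the block. Metallothioneins are small zinc-binding proteins induced through metal response elements. Mt1 read 12.70, 12.66 and 12.59 in siSHP_IFNg_GW and 11.65, 11.79 and 11.66 in siCon_IFNg, near the top of the measured range, and rose by 0.95 ± 0.10 (adjusted p = 0.00688). The groups were each within a narrow band and did not overlap. Slc30a1, a zinc exporter, rose with the block (0.44, adjusted p = 0.0340), while Mt2A (0.10) and Mt3 (-0.36) did not pass in either fit. A further metallothionein gene, Mt1f, rose by 1.16 ± 0.15 (adjusted p = 0.0201). Near-identical copies of metallothionein genes can share probes, so these values are uncertain as to the copy. The Mt1 promoter (minus strand, chr19:10832926-10833225) is shown with the metal response element core in capitals, searched as TGCACNC and TGCGCNC on both strands. It held 3 matches of each, at 55 to 176 bases before the start. TGCACNC was found in 12.2% and TGCGCNC in 15.02% of all promoters, and both in all 5 promoters of the list. Promoters of the genes tested held them in 12.9% and 21.0%, and the 47 matched for the 55 genes in 14.9% and 27.7%.
Mt1: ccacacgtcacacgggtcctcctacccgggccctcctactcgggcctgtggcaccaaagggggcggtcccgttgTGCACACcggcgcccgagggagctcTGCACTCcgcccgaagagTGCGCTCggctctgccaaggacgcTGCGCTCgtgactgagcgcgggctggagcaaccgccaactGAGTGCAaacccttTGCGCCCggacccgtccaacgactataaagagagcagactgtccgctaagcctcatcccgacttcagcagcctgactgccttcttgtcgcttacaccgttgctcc

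In the p53 and growth arrest list 1 of 11 genes rose over 12 arrays, and with the block 4 rose and 1 fell. Gadd45a, a growth arrest and DNA damage gene, read 10.26, 10.74 and 10.82 with SHP siRNA and GW and 9.18, 9.29 and 9.36 with interferon-γ alone. All treated arrays lay above, and the difference was 1.33 ± 0.14 (adjusted p = 0.00688). Untreated cells were at 10.45, 10.23 and 10.22, so that interferon-γ alone gave the lowest level of the 4 groups. Gadd45g (2.27, adjusted p = 0.0518) and Gadd45b (1.43, 0.380) rose with the block (adjusted p = 0.0125 and 0.0152), as did Mdm2, the ubiquitin ligase of p53 (0.64, 0.00289), while Phlda3, a p53 target that restrains AKT, fell (-0.59, 0.0191). Histone genes of low signal with interferon-γ alone were among the higher genes. H1f6 read 7.94, 8.78 and 9.12 against 5.77, 5.92 and 6.01 (2.71 ± 0.41, adjusted p = 0.0388) and H2bc9 6.55, 7.13 and 7.33 against 5.35, 5.39 and 5.52 (1.58 ± 0.27, 0.0467). H2bcl1, Trim17 and Garin4 were below background on all siCon_IFNg arrays, so their rises are given as lower bounds against the background level: at least 1.37-fold, 2.50-fold and 2.37-fold (adjusted p = 0.0388, 0.0473 and 0.0442). Cluster histone genes resemble one another, so these probes may not part them.

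Lists of lipid metabolism and nuclear receptor genes had medians near that of all genes, with single members that rose. Srebf1, the SREBP-1 gene and a target of LXR receptors, read 9.43, 9.53 and 9.31 in siSHP_IFNg_GW and 8.65, 8.38 and 8.38 in siCon_IFNg and rose by 0.95 ± 0.15 (adjusted p = 0.0388). The cholesterol exporter gene Abca1, a further LXR target, read 10.48, 10.72 and 10.62 against 9.95, 10.12 and 10.08, without overlap, at a difference of 0.56 ± 0.21 (adjusted p = 0.430, 0.0638 with the block). Srebf1 was the 1 gene of 18 in the LXR list to pass over 12 arrays or with the block, and the median was -0.01. Insig1, which holds SREBP proteins in the endoplasmic reticulum, rose with the block (0.99, adjusted p = 0.00279), as did the isoprenoid enzyme gene Idi1 (0.63, 0.0471), in a cholesterol list whose median was 0.01. Nrip1, a corepressor of nuclear receptors, rose by 0.55 ± 0.10 (adjusted p = 0.0473), and the list of nuclear receptors and corepressors had a median of 0.11. Targets of FXR and PPAR, among which Nr0b2 is a classic FXR target, had a median of -0.04 with 0 of 15 genes past the threshold over 12 arrays. Their 4 members with the smallest p were Acadm (-0.25), Plin2 (-0.28), Slc51b (-0.16) and Ucp2 (-0.32); the mitochondrial carrier gene Ucp2 fell with the block (adjusted p = 0.0472).

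No list held more than 1 of the 11 genes that were lower. Il15, a cytokine that sustains NK and memory T cells and is induced by interferons, read 5.57, 5.80 and 5.89 in siSHP_IFNg_GW and 6.80, 7.63 and 6.91 in siCon_IFNg. Untreated arrays, at 5.43, 5.56 and 5.83, overlapped the former, and the difference was -1.36 ± 0.21 (adjusted p = 0.0388). Tm4sf1, a tetraspanin-like surface protein listed among reactive astrocyte genes, read 5.87, 6.23 and 6.33 against 6.97, 6.76 and 6.87 (-0.72 ± 0.13, adjusted p = 0.0485). Abcc4, an exporter of organic anions and cyclic nucleotides, read 8.52, 8.58 and 8.43 against 9.18, 9.20 and 9.18 (-0.68 ± 0.11, adjusted p = 0.0388). In each of these the highest treated array was below the lowest with interferon-γ alone. The remaining 8 were Tmbim4 (-0.74), Tmem184c (-0.70), Nme7 (-0.68), Eid1 (-0.68), Nt5c3a (-0.65), Agrn (-0.60), Pigk (-0.59) and Bcap31 (-0.44). They include Agrn, the matrix proteoglycan agrin, and Bcap31, a chaperone of the endoplasmic reticulum. With the block, further falls were led by Clec2g (-1.21, adjusted p = 0.0142), Apol3l1 (-1.12, 0.0138), the iron exporter gene Slc40a1 (-1.03, 0.0143), Npc1, which releases cholesterol from lysosomes (-0.98, 0.00433), and the neurotrophic cytokine gene Cntf (-0.84, 0.00233).

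Many of these genes also differed in a comparison that shares no array with this one. Both comparisons took each gene's spread from the same fit, so their calls are not independent of each other. Interferon-γ with GW under control siRNA was compared with untreated cells, siCon_IFNg_GW against siCon, in which 106 genes were higher (0.584%) and 51 lower (0.281%) over 12 arrays. Of the 44 genes higher in siSHP_IFNg_GW than in siCon_IFNg, 37 were also higher there, 84.1% of the first list and 34.9% of the second. Of the 11 lower genes, 7 were also lower, 63.6% and 13.7%, and 0 of the 55 passed in opposite directions. With the block, where 2.94% of genes were higher and 3.90% lower, 255 higher and 156 lower genes passed in both, 72.0% and 76.1% of the first list. Without number 1, where 3.31% of genes were higher and 2.35% lower, 414 higher and 174 lower genes passed in both, 56.9% and 43.3% of the first list. In that fit 1 gene passed in opposite directions, Arsj, named after its values were seen (-0.61, adjusted p = 0.00507, and 0.35, 0.0475). In the comparison that shares the siSHP_IFNg_GW arrays, SHP siRNA against control siRNA under interferon-γ and GW, the differences of the 55 genes ran from -0.51 to 0.34. Side by side, Ccn1 stood at these differences (2.71 against interferon-γ alone, -0.04 between the siRNAs with a 95% interval of -0.67 to 0.58), Id1 (1.82 and -0.44, -0.85 to -0.02) and Mt1 (0.95 and -0.09, -0.30 to 0.12).

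**Figure D2:**
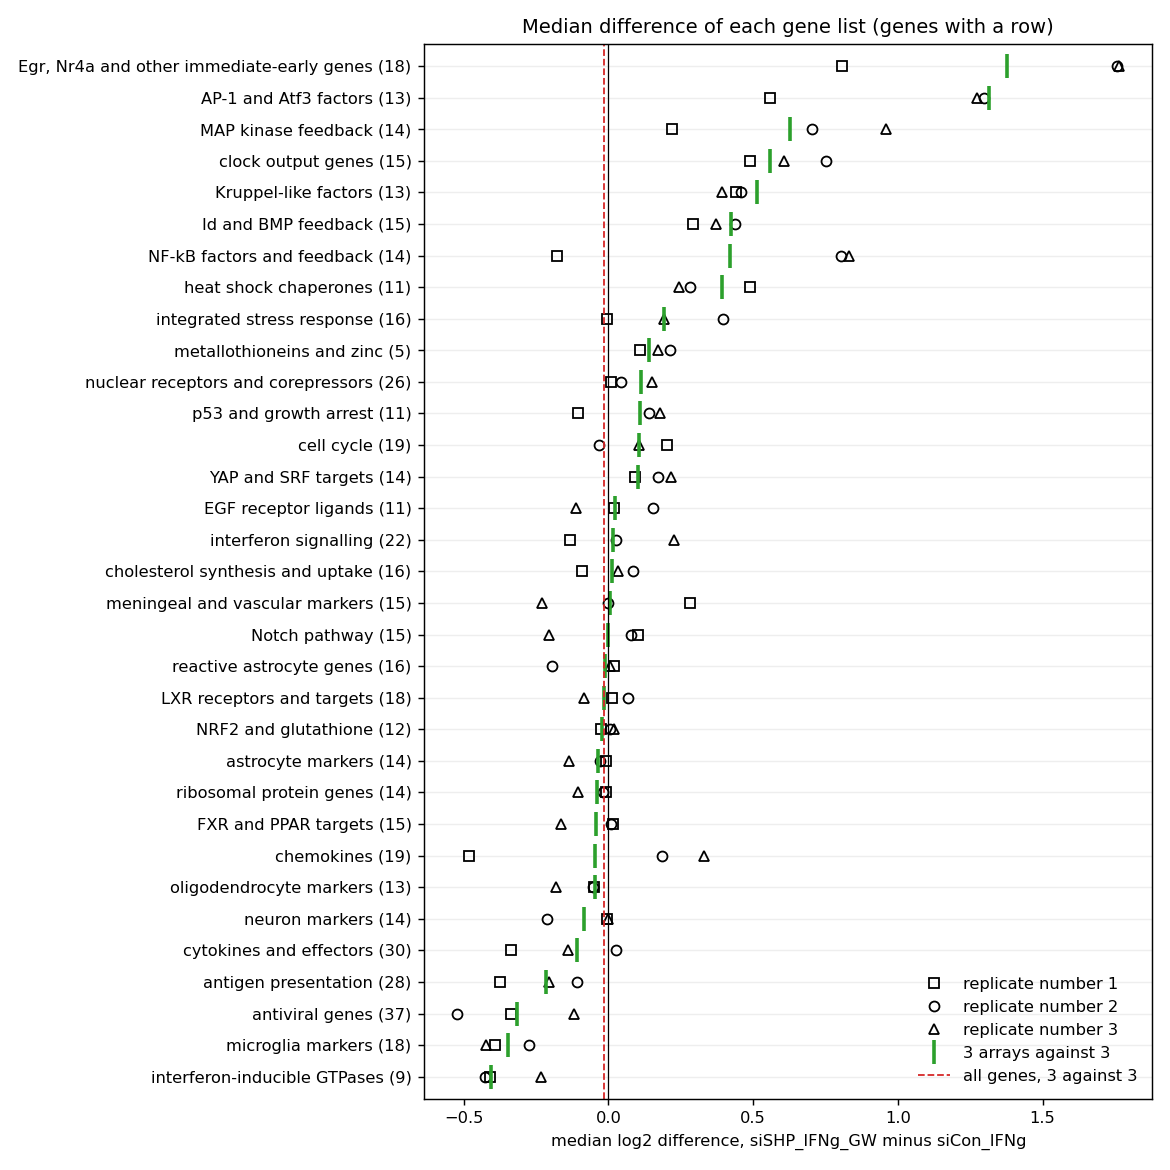
Median log2 difference between siSHP_IFNg_GW and siCon_IFNg for each of 33 gene lists, with the number of genes in brackets; open symbols are the median within replicate numbers 1, 2 and 3, green bars the median over 3 against 3 arrays and the dashed line the median of all genes. Immediate-early and AP-1 genes lie farthest to the right in all 3 numbers, interferon-inducible GTPases and microglia markers have the lowest medians over 3 against 3 arrays, and the NF-kB and chemokine lists change sign between number 1 and numbers 2 and 3.

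Among genes that interferon-γ switches on, the chemokine genes Cxcl9, Cxcl10 and Cxcl11 and Irf8 stood near their interferon-only level with SHP siRNA in numbers 2 and 3, where they were low with GW under control siRNA. A p above the threshold does not show a return, so the 95% interval of the difference was set against a range of 1.5-fold in either direction. It lay within that range for 12751 genes over 12 arrays (70.2%), 15666 with the block (86.2%) and 15000 without number 1 (82.6%). These counts are not of genes that returned, as they take in dim genes and genes that GW did not change. Over 12 arrays 161 of 18166 genes differed between siCon_IFNg_GW and siCon_IFNg. With dim genes left out, 8141 of 12433 genes lay within the range. Cxcl9, a chemokine that draws T cells through CXCR3, read 9.04, 11.60 and 11.89 in siSHP_IFNg_GW, 9.61, 12.19 and 11.64 in siCon_IFNg and 6.75, 5.19 and 5.11 in siCon_IFNg_GW. The first groups overlapped, and in numbers 2 and 3 the control siRNA arrays with GW were below background. The difference from interferon-γ alone was -0.31, with an interval of -2.22 to 1.61 that is too wide to place it within 1.5-fold over 12 arrays. Without number 1 the interval was -0.58 to 0.23, which lies within the range. Cxcl10 (0.10, -0.22 to 0.42) and Cxcl11 (0.06, -0.36 to 0.49), ligands of the same receptor, were also within it without number 1. Irf8, a factor of the interferon response, read 8.27, 10.66 and 10.74 with SHP siRNA, 7.95, 10.43 and 10.39 with interferon-γ alone and 7.75, 7.26 and 7.24 with GW under control siRNA. Numbers 2 and 3 of the first pair of groups lay together, far above the third, while number 1 was low throughout. Without number 1 its difference was 0.29 (0.03 to 0.55).

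The test of the difference between the siRNAs under interferon-γ and GW called 0 genes with limma over 12 arrays and 0 with the block. At an unadjusted limma p under 0.05 there were 416 and 972 genes. With no difference at all, a share of 0.05 of the genes tested would fall under that p, so these 2 counts show no signal by themselves. Without number 1, which leaves numbers 2 and 3 of each group, it called 267 genes (1.47%). Of these 246 were higher with SHP siRNA (1.35%) and 21 lower (0.116%). Without number 2, or without number 3, it called 0. Number 1 was left out after its values were seen, those of interferon genes among them, so these calls are not free of that choice. Of the interferon lists, 11 of 22 signalling genes, 9 of 9 GTPases, 27 of 37 antiviral genes and 9 of 28 antigen presentation genes were among the 246, and 0 among the 21. Irf8 was 3.46 higher (adjusted p = 7.13e-06), Cxcl10 3.36 (1.94e-05), Cxcl11 4.77 (1.29e-05) and the GTPase gene Ifi47 3.67 (6.72e-06). These differences rest on numbers 2 and 3. In number 1 Cxcl10 read 11.56 with SHP siRNA and 10.91 with control siRNA under interferon-γ and GW.

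**Figure D3:**
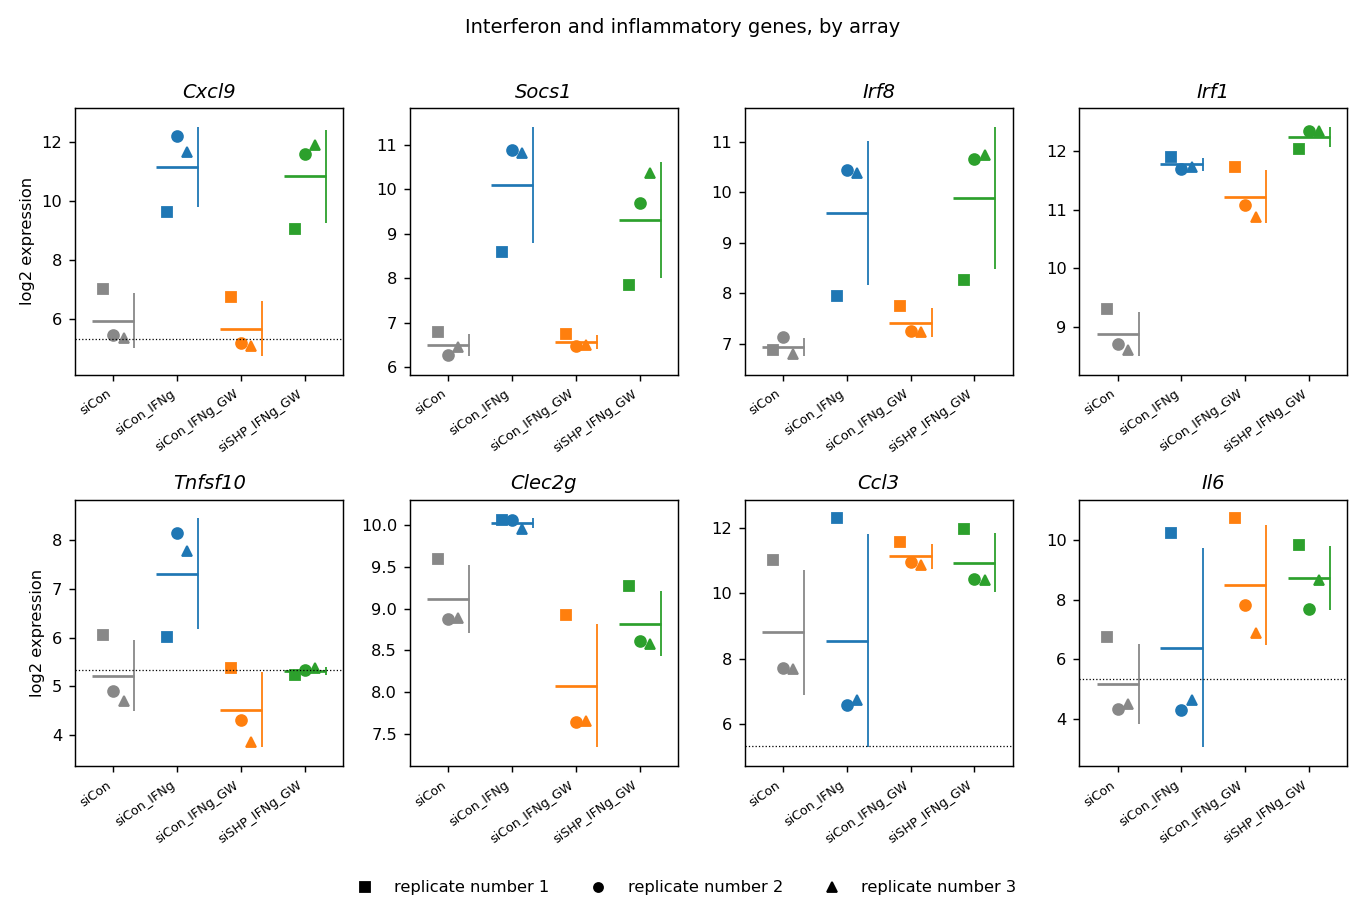
Log2 expression of 8 interferon and inflammatory genes on each of the 12 arrays, by group, with symbols as replicate numbers 1 (squares), 2 (circles) and 3 (triangles), lines for group means and 1 SD, and a dotted line at the background of 5.34 where values come near it. For Cxcl9, Socs1 and Irf8 the siSHP_IFNg_GW circles and triangles lie close to those of siCon_IFNg and far above siCon_IFNg_GW, whereas for Ccl3 and Il6 they lie with siCon_IFNg_GW.

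Return was not equal among interferon genes. GTPases that attack vacuoles of pathogens had a median difference from interferon-γ alone of -0.40, with 1 of 9 above 0 (8335 of 18166 over all genes). Of the 9, 0 passed the threshold over 12 arrays. Gbp2 read 10.01, 10.45 and 10.18 in siSHP_IFNg_GW and 10.41, 11.21 and 10.62 in siCon_IFNg. Each treated array was below the control array of its own number, though the groups overlapped (difference -0.53, -1.63 to 0.57). Without number 1 the intervals of 3 of the 9 were within 1.5-fold, and Gbp1 fell (-1.05, adjusted p = 0.0215). Gbp7 read 9.83, 11.05 and 11.08 against 11.19, 11.83 and 11.42 (-0.56, -0.87 to -0.25 without number 1). Socs1, a feedback inhibitor of JAK kinases, read 7.85, 9.70 and 10.37 against 8.59, 10.90 and 10.82 and 6.75, 6.48 and 6.49 with GW under control siRNA. Without number 1 it was -0.82 relative to interferon-γ alone (adjusted p = 0.0445) and 3.54 higher than with control siRNA and GW (6.89e-05).

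Antiviral genes had a median of -0.32 over 37 genes. None passed over 12 arrays. The transmembrane genes Ifitm2 (-0.39, adjusted p = 0.0254) and Ifitm3 (-0.35, 0.0449) fell with the block, and without number 1 7 genes fell and 1, the RNA sensor homologue gene Oasl, rose (0.69, 0.0176). Cmpk2, a mitochondrial nucleotide kinase, read 10.18, 9.38 and 9.49 against 10.94, 10.71 and 10.48 (-1.02 over 12 arrays, adjusted p = 0.713; -1.16, 0.00438 without number 1). The zinc finger antiviral protein gene Zc3hav1 read 9.31, 9.45 and 9.51 against 9.96, 10.32 and 10.13 without overlap (-0.71, adjusted p = 0.266; -0.74, 0.00374 without number 1). In both, numbers 2 and 3 stood between interferon-γ alone and interferon-γ with GW under control siRNA, which were 9.96, 7.80 and 7.88 and 9.25, 8.47 and 8.56. Antigen presentation genes had a median of -0.21. Psmb10, an immunoproteasome subunit, read 7.92, 8.27 and 8.16 against 8.97, 9.15 and 8.97 and fell with the block (-0.91, adjusted p = 0.0518 and 0.0169). Ciita, the master activator of MHC class II genes, was below background on all siSHP_IFNg_GW arrays and averaged 5.82 in siCon_IFNg, at least 1.39-fold lower (adjusted p = 0.166 over 12 arrays and 0.00157 without number 1).

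Some interferon genes stood well below the interferon-only level with SHP siRNA and GW. Tnfsf10, the death ligand TRAIL, read 5.23, 5.34 and 5.39 in siSHP_IFNg_GW, a mean not above background, and 6.02, 8.14 and 7.79 in siCon_IFNg. Numbers 2 and 3 were far apart while number 1 was low in both groups. Over 12 arrays, with the 1 array below background taken at that level, it was at least 3.88-fold lower (adjusted p = 0.236). Without number 1 both siSHP_IFNg_GW arrays lay just above background, and it was 6.05-fold lower (adjusted p = 1.82e-04). Clec2g, a C-type lectin, read 9.26, 8.61 and 8.58 against 10.06, 10.06 and 9.96, and Apol3l1, of the apolipoprotein L family, 7.69, 7.50 and 7.64 against 8.85, 8.69 and 8.64. Neither pair of groups overlapped. For both, SHP siRNA was higher than control siRNA under interferon-γ and GW without number 1 (0.94, adjusted p = 6.94e-04, and 0.75, 0.00720), and both were lower than with interferon-γ alone (-1.41, 7.61e-05, and -1.10, 8.17e-04). Il15 was 0.54 higher than with control siRNA and GW in the same fit, which did not pass (adjusted p = 0.452).

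**Figure D4:**
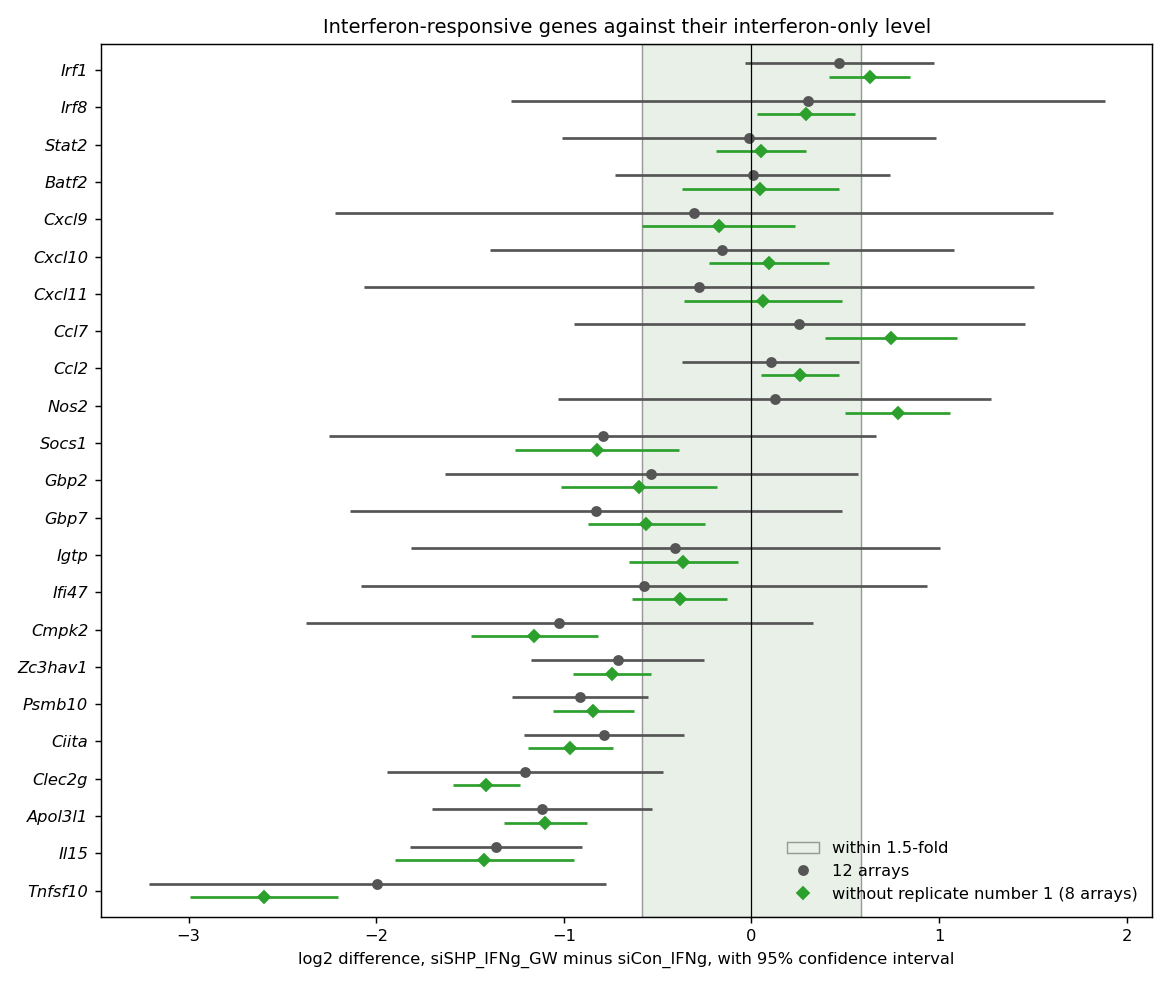
Difference between siSHP_IFNg_GW and siCon_IFNg with its 95% confidence interval for 23 interferon-responsive genes, over 12 arrays (grey circles) and without replicate number 1 (green diamonds); the shaded band is 1.5-fold in either direction. Without number 1 the intervals of Irf8, Stat2, Batf2, Cxcl9, Cxcl10, Cxcl11 and Ccl2 lie inside the band. Those of Cmpk2, Psmb10, Ciita, Clec2g, Apol3l1, Il15 and Tnfsf10 lie below it. Over 12 arrays Ciita and Tnfsf10 averaged below background with SHP siRNA, and without number 1 Tnfsf10 averaged 5.37, just above it.

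Other interferon genes stood above the interferon-only level without number 1, and none of those named here passed over 12 arrays. Irf1, the first-wave factor, read 12.04, 12.34 and 12.35 with SHP siRNA and GW, 11.90, 11.70 and 11.73 with interferon-γ alone and 11.73, 11.07 and 10.87 with GW under control siRNA. The first groups did not overlap, and the difference was 0.47 ± 0.23 over 12 arrays (adjusted p = 0.610) and 0.63 without number 1 (0.00848). Nos2, the inducible nitric oxide synthase, read 6.95, 6.56 and 6.85 against 8.14, 5.99 and 5.85. Numbers 2 and 3 rose and number 1, high with interferon-γ alone, was lower (0.12, adjusted p = 0.986; 0.78, 0.0103 without number 1). The monocyte chemokine gene Ccl7 was 0.75 above interferon-γ alone without number 1 (adjusted p = 0.0301). Ccl7 did not pass over 12 arrays, and its sign turned when some other arrays were left out. Its relative Ccl2 did not stand clearly above, reading 11.94, 11.98 and 12.03 against 12.15, 11.80 and 11.70 with overlap. Over 12 arrays the Ccl2 difference was 0.10, with an interval of -0.37 to 0.58 that includes no difference.

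Promoters of 4 interferon genes that differed in how near they came to the interferon-only level are shown, with GAS letters TTCNNNGAA and ISRE letters, 2 copies of GAAA parted by any 2 bases, in capitals, both searched on both strands. GAS stands for the interferon-γ activated sequence, and ISRE, the interferon-stimulated response element, holds the letters bound by IRF factors. Irf1 (chr10:38417685-38417984) held 1 GAS and no ISRE match. Socs1 (chr10:5389324-5389623) held 1 GAS match and 2 overlapping ISRE matches. Igtp (chr10:42874797-42875096), a GTPase gene that read 9.05, 10.33 and 10.25 against 9.54, 10.82 and 10.48, held 1 of each, and Gbp7 (chr2:233948639-233948938) held 2 GAS matches and 1 ISRE match. All 4 lie on the plus strand. GAS letters were found in 8.68% and ISRE letters in 3.77% of all promoters of the table. Of the 9 GTPase genes 4 held GAS and 6 held ISRE letters, as did 6 and 17 of the 26 antiviral genes matched. Of the 47 promoters matched for the 55 genes that differed, 1 held GAS and 1 held ISRE letters (2.13% each).
Irf1: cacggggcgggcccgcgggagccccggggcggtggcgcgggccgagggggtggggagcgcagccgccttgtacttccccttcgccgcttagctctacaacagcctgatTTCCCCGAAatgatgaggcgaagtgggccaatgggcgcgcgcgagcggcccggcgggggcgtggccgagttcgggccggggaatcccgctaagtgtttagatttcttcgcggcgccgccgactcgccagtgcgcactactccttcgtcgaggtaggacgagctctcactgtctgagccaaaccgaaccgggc
Socs1: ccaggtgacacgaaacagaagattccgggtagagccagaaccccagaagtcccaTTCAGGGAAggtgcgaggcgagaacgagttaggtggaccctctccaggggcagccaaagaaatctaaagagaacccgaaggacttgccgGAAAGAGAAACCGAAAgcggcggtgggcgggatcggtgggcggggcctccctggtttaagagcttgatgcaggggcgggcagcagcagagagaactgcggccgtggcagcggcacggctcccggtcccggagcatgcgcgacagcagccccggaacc
Igtp: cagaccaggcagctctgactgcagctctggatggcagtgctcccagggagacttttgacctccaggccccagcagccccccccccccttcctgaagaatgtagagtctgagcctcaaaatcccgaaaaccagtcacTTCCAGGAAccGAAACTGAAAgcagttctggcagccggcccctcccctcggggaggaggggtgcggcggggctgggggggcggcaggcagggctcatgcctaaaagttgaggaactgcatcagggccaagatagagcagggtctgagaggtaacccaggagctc
Gbp7: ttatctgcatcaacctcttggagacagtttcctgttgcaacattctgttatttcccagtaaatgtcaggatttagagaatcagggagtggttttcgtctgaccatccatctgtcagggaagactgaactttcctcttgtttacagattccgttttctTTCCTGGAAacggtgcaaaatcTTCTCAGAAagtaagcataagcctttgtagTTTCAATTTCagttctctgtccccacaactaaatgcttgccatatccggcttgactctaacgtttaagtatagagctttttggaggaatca

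Chemokines and cytokines of the NF-κB type depended on the replicate number. Number 1 was set against the others because it stood apart in earlier results of these data. Numbers 2 and 3 were not singled out in this way. Cxcl1, which draws neutrophils, read 11.81, 11.26 and 11.38 in siSHP_IFNg_GW and 11.45, 8.04 and 7.88 in siCon_IFNg. Number 1 was already high with interferon-γ alone, and numbers 2 and 3 were not. The difference was 2.36 over 12 arrays (adjusted p = 0.322, 0.0469 with the block). Ccl3, a macrophage chemokine, read 11.98, 10.44 and 10.41 against 12.31, 6.60 and 6.73: within numbers 2 and 3 it was 3.84 and 3.68 higher with SHP siRNA and GW, and within number 1 -0.33. Ccl4 (-0.28, 2.92 and 3.46 within numbers 1, 2 and 3) and Ccl20 (-0.71, 2.80 and 2.94) did likewise. Ptgs2, the inducible prostaglandin synthase, read 11.35, 10.36 and 10.49 against 10.85, 7.80 and 7.71 and rose with the block (1.95, adjusted p = 0.0340). In the chemokine list 0 of 19 genes passed over 12 arrays, 1 rose with the block and 7 without number 1, with medians of -0.48, 0.19 and 0.33 within the numbers. NF-κB factors and their inhibitors, such as Nfkbia (12.43, 11.41 and 11.47 against 11.94, 9.38 and 9.44) and Nfkbiz (10.58, 9.14 and 9.35 against 10.24, 6.94 and 6.90), passed in 0 of 14 genes over 12 arrays, 2 with the block and 12 without number 1, all higher. Whether the difference within number 1 departs from that within numbers 2 and 3 was tested with an interaction term, and it did for 94 genes, of which 81 had a smaller or more negative difference in number 1.

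**Figure D5:**
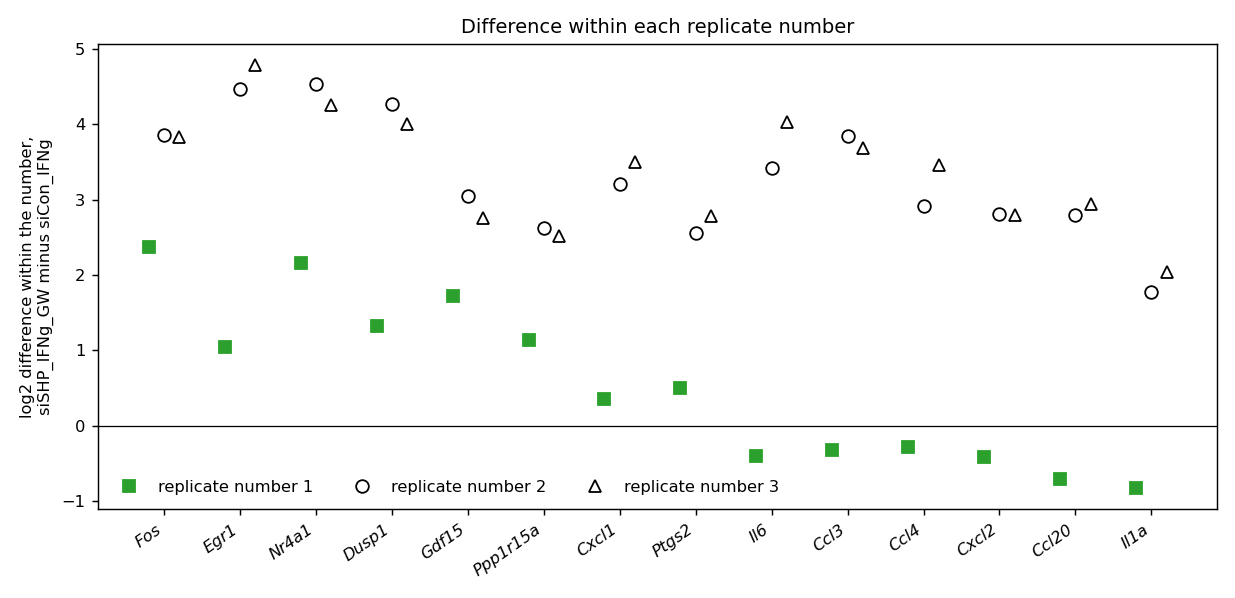
Log2 difference between siSHP_IFNg_GW and siCon_IFNg within each replicate number for 14 immediate-early and inflammatory genes; filled squares are number 1, open circles number 2 and open triangles number 3. For each gene the number 1 difference is the lowest of the 3, and for Il6, Ccl3, Ccl4, Cxcl2, Ccl20 and Il1a it lies below 0.

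No gene of the stress lists passed over 12 arrays, and a few did with the block. Integrated stress response genes had a median of 0.19, with 0 of 16 past the threshold and 2 with the block: Chac1, which degrades glutathione (1.27, adjusted p = 0.0199), and Ppp1r15a, which restores translation (2.09, 0.0154). Heat shock chaperones had a median of 0.39, with all 11 differences above 0 (8335 of 18166 over all genes). For 7 the groups did not overlap, all higher, against 1149 of 18166 genes that were higher without overlap. Of the 11, 0 passed over 12 arrays and 3 rose with the block, Hsph1 (1.04, adjusted p = 0.0231), Dnaja1 (0.51, 0.0398) and Chordc1 (0.58, 0.0493). In the NRF2 and glutathione list (median -0.02) 3 of 12 rose with the block: the heme oxygenase gene Hmox1 (0.75, adjusted p = 0.0493), Gclc, of glutathione synthesis (0.51, 0.0462), and Osgin1 (0.79, 0.0490). Cell cycle genes had a median of 0.10, and 2 of 19 had intervals within 1.5-fold over 12 arrays (70.2% of all genes), 19 with the block (86.2%) and 19 without number 1 (82.6%). Ribosomal protein genes had a median of -0.04 and 10, 14 and 12 of 14 intervals within that range in the same fits.

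Markers of the cell types in the culture were measured beside these results. Astrocyte markers had a median of -0.04, and 0 of 14 passed over 12 arrays or with the block (0.303% and 3.08% of all genes). Their intervals lay within 1.5-fold for 8 of 14 over 12 arrays (70.2% of all genes) and for 14 with the block (86.2%). Microglia markers were present in all groups: 18 of 18 were above background, none was at 0, and their summed log2 level ran from 142 to 150.1 in siSHP_IFNg_GW, 149 to 156 in siCon_IFNg, 142 to 148 in siCon_IFNg_GW and 149 to 164 in siCon. Their median difference from interferon-γ alone was -0.35, with 2 of 18 above 0 (8335 of 18166 over all genes) and 0 past the threshold over 12 arrays. With the block 3 fell: C1qc, a complement subunit (-0.38, adjusted p = 0.0423), Aif1, a calcium-binding protein of macrophages (-0.57, 0.0474), and Ly86, a partner of a Toll-like receptor relative (-0.67, 0.0430). Tyrobp, a myeloid adaptor, read 8.67, 9.05 and 8.98 against 9.77, 9.51 and 9.60 without overlap (-0.73, adjusted p = 0.150, 0.0583 with the block). Interferon genes that stood below their interferon-only level moved in the same direction as these markers. The part of microglia in those values was not tested. In bulk RNA, fewer cells of a type and less RNA per cell cannot be told apart. Markers of oligodendrocytes (-0.05), neurons (-0.08) and meningeal and vascular cells (0.00) had 0 genes past the threshold over 12 arrays and with the block. Over all genes 0.303% and 3.08% passed, so 0 in lists this short does not show stable levels. Without number 1 (6.21% of all genes), 1 of 14 astrocyte, 5 of 18 microglia and 1 of 13 oligodendrocyte markers fell. In that fit 1 of 14 neuron markers rose, and of 15 meningeal and vascular markers 2 rose and 2 fell.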

How the data were processed

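The series has 12 arrays, 3 for each of its 4 groups, and 6 arrays entered the comparison described. The authors' deposited values are log2 expression by transcript cluster. Base 2 is read from their range of 1.01 to 13.43. Background correction, summarisation and normalization: not given in the sources used here. Of 36685 rows, 18511 were paired with 1 gene in the platform annotation, 575 with several and 17599 with none. Rows with 1 gene gave 18166 genes, using the row with the highest mean for 291 genes with more than 1 row. No depth exists for arrays, and the number of arrays limits the precision.

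limma 3.58.1 in R 4.3.3 was fitted on 4 group means over 12 arrays (lmFit, eBayes), with Benjamini-Hochberg adjustment over all genes tested. The fits were tested on simulated data. Groups and replicate numbers came from the titles. Deviations from the group mean correlated between arrays of the same number, by 0.63 to 0.77 in number 1. In numbers 2 and 3 they correlated by 0.48 to 0.58 and 0.43 to 0.55. The numbers were therefore read as pairing the samples. Deviations within a group cancel out, so number 1 standing apart also raises the correlations within numbers 2 and 3. Pairing beyond number 1 was not tested. The block treats the replicate numbers as pairing and the fit over 12 arrays does not. The interaction model has 1 array a group in number 1 and takes its spread from numbers 2 and 3. A gene below background on all arrays of 1 group is given as a bound, the mean of the brighter group over the background level.

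The compared groups and the 33 lists (609 memberships, 540 with a row) were chosen with earlier results of these data known. Named genes were the 15 largest rises and falls past the threshold without overlap (up to 10 by smallest p where fewer passed), 10 in each direction with the block and 10 in each direction with GW under control siRNA, up to 4 members a list with the smallest p, and 19 set genes, of which Nr0b2, Irf1, Cxcl9, Cxcl10, Ccl2, Nos2, Socs1, Gbp2, Fos, Egr1, Klf2, Klf4, Hes1, Id1, Abca1, Srebf1, Gfap and Tyrobp were used. Other genes were named after their values were seen: Aif1, Batf2, Ccl7, Cxcl11, Cxcl2, Ifitm3, Igtp, Il1a, Il6, Irf8, Ly86, Mt1f, Oasl, Osgin1, Phlda3, Ppp1r15a and Stat2. Promoters are from the RefSeq table of build GRCr8, matched by gene ID. Plots were made in matplotlib 3.10.9 under Python 3.11.15.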

Additional observations from a re-analysis of the deposited data

Results flagged for a closer look

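In 94 of 18166 genes the difference between siSHP_IFNg_GW and siCon_IFNg in number 1 departed from that in numbers 2 and 3 by an interaction test (limma adjusted p under 0.05). It was lower in number 1 for 81 and higher for 13. Of 19 chemokine genes 7 were among the 81, as were 7 of 14 NF-κB genes, 7 of 30 cytokine and effector genes and 5 of 18 immediate-early genes. Neither the 9 GTPases nor the 37 antiviral genes had any member among them. For Ccl3 the difference in number 1 was -0.33, against 3.84 and 3.68, and the departure was -4.09 (adjusted p = 5.67e-05). For Egr1 it was -3.59 (adjusted p = 0.00144). Number 1 has 1 array in each group, so the spread comes from numbers 2 and 3 alone. Number 1 was chosen for this test because it stood apart in earlier results of these data, and numbers 2 and 3 were not tested likewise.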

How the results depend on the processing

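The number of genes that differed between siSHP_IFNg_GW and siCon_IFNg rose from 55 to 559 with the replicate block, which reads the numbers as pairing. It rose to 287 with the number as a random block and to 795 with number 1 as a batch. It was 30 on centred values, 96 with dim genes left out, 6 from the 6 arrays alone, and 876 without number 1 with the block, an alternative chosen after seeing the data. Leaving out 1 array or 1 number gave 0 to 1129 genes, and 0 remained without number 2, without number 3, or without replicate 3 of either group. For siCon_IFNg_GW against siCon_IFNg, 161 genes became 1189, 716 and 1558 with the replicate, random and batch blocks, 79 on centred values, 4 from the 6 arrays alone, 1776 without number 1 with the block, and 0 to 2081 on leaving out. For siCon_IFNg_GW against siCon, 157 genes became 1242, 711 and 1604 with those blocks, 79 centred, 32 from the 6 arrays alone, 779 without number 1 with the block, and 0 to 1028 on leaving out. For siCon_IFNg against siCon, 22 genes became 170, 94 and 232 with those blocks, 7 from the 6 arrays alone, 731 without number 1 with the block, and 0 to 856 on leaving out. For siSHP_IFNg_GW against siCon_IFNg_GW, 0 genes became 1 with number 1 as a batch, 231 without number 1 with the block, and 0 to 267 on leaving out. Genes whose difference was not the same in number 1 as in the others counted 94, 224 centred and 394 with dim genes left out. Genes with an interval within 1.5-fold counted 12751, 8141 with dim genes left out, 1197 within 1.2-fold, and 7810 to 15000 on leaving out. The causes were not tested, except that leaving out dim genes or arrays leaves fewer to test.

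On quantile-normalized values Batf2 turned to -0.0074 and Stat2 to 0.039 (log2), both near 0 in the fit over 12 arrays. On leaving out arrays the sign turned for genes that had not passed the test: Batf2 ranged from -0.30 to 0.36, Ccl2 from -0.0095 to 0.26, Ccl7 from -0.11 to 0.75, Cxcl10 from -0.40 to 0.13, Cxcl11 from -0.66 to 0.32, Cxcl9 from -1.08 to 0.60, Gfap from -0.0731 to 0.12, Igtp from -0.78 to 0.0077, Irf8 from -0.52 to 1.11, Nos2 from -0.31 to 0.86, Oasl from -0.56 to 1.51, Slc51b from -0.26 to 0.0143 and Stat2 from -0.12 to 0.0803. Cxcl10, Cxcl11 and Stat2 were 0.0958, 0.0633 and 0.0506 without number 1, with or without the block.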
